A study of Mus musculus with 18 samples.

Results

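The Secisbp2 knockout footprint experiment comprised 4 ribosome footprint libraries from mouse liver, 2 from knockouts and 2 from wild type, out of 18 libraries in the series. They were chosen by genotype and assay alone, and for each gene the density 5' of the UGA codon, the density 3' of it and the 3'/5' ratio were read within each library. The knockout livers carried Alb-Cre and Secisbp2 fl/fl, so that Cre driven by the albumin promoter deletes Secisbp2 in hepatocytes while other liver cells keep it. The wild type livers came from matched littermates. All mice were males of 5 to 8 weeks, and the tissue was whole liver, so that a lower value could come from fewer hepatocytes or from less RNA per cell, which cannot be told apart. A further 5 footprint libraries are used for comparison, 2 from livers with Alb-Cre and Trsp fl/fl and 3 from their wild type littermates. The series also holds mRNA libraries, 2 for each Secisbp2 genotype. Per the labels there were 3 mice for each background.

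Selenoproteins contain selenocysteine, an amino acid that is inserted at a UGA codon, which otherwise ends translation. The insertion needs a selenocysteine transfer RNA, made from Trsp, and a hairpin in the mRNA called SECIS, which the SECIS-binding protein Secisbp2 recognises in order to bring the transfer RNA with its elongation factor to the ribosome. Ribosomes 5' of the UGA have started translation, those 3' of it have passed the UGA, and the ratio of the densities follows how often the UGA is passed. Liver makes many of these proteins, among them the carrier that sends selenium to other organs.

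The tables held 23 selenoprotein genes and no others, so that neither Secisbp2 itself nor any marker of hepatocytes or other liver cells (0 of the markers sought) was there to check the deletion or the tissue. Over these genes the knockout libraries held 11356 and 10526 reads 5' of the UGA and the wild type libraries 9687 and 13705. On the 3' side the knockout libraries held 4285 and 3133 reads and the wild type libraries 14304 and 16856. The knockout libraries were the deeper ones, at 3.88 and 4.08 times the depth of the shallowest footprint library, against 2.01 and 2.69 for wild type. The knockout and wild type libraries have codes from 2 different sets, so a difference between genotypes cannot be told apart from a difference between those sets. The tests of footprint density and ratio pooled their spread over the 9 footprint libraries, and that of footprints over mRNA over all 18 libraries. Trsp wild type replicate 2 stood apart, with 4340 RPKM (reads scaled to window length and library size) of Gpx1 5' of the UGA against 1275 and 1020 RPKM in the other Trsp wild type libraries.

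Ribosomes past the UGA were fewer in Secisbp2 knockout livers for most of the genes that could be measured. Of 12 genes tested 3' of the UGA, 9 (75%) were lower by limma at an adjusted p under 0.05 and none (0%) were higher, while 10 had an unadjusted p under 0.05. The median log2 change of the 12 genes was -2.29, and 11 of the 12 changes were negative. For 12 of the 23 genes the knockout values did not overlap the wild type values and were the lower ones, for 3 they overlapped and 8 were listed at 0 in every library.

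Both genes of selenium transport and selenophosphate synthesis fell 3' of the UGA, where 75% of all tested genes did. Selenop, the secreted selenium carrier, had 117 and 83.7 RPKM 3' of the UGA in knockout livers, against 620 and 714 RPKM in wild type. On the log2 scale the change was -2.74 (SE 0.308, limma adjusted p = 2.1e-05), and the knockout libraries lay far below both wild type libraries. Sephs2, the enzyme that makes selenophosphate for the building of selenocysteine and is itself a selenoprotein, had 8.96 and 4.58 RPKM in knockout livers against 88.8 and 63.7 RPKM in wild type. Sephs2 changed by -3.45 (SE 0.373, adjusted p = 2.1e-05), the steepest fall of the 12.

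Of the glutathione peroxidases, 2 of the 3 tested fell 3' of the UGA, near the 75% of all tested genes. The list median log2 change was -2.94 against -2.29 for all 12 genes. Gpx1, which reduces hydrogen peroxide in the cytosol, had 173 and 117 RPKM in knockout livers and 1338 and 906 RPKM in wild type (log2 change -2.94, SE 0.397, adjusted p = 5.5e-05). Gpx4, which reduces lipid peroxides in membranes, had 12.9 and 7.15 RPKM in knockout livers and 89.5 and 66.4 RPKM in wild type (log2 change -2.94, SE 0.408, adjusted p = 5.8e-05). For both genes the 2 genotypes were clearly apart. Gpx3, the secreted plasma enzyme, was low in liver, at 2.51 and 1.74 RPKM in knockout livers against 1.10 and 1.97 RPKM in wild type, and its change of 0.38 did not pass (adjusted p = 0.390). Gpx2, best known from the gut lining, rested on 2 and 3 reads in knockout livers against 4 and 2 in wild type and was under the minimum.

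The deiodinase Dio1, which removes iodine from thyroid hormone, had 2.41 and 1.27 RPKM 3' of the UGA in knockout livers, against 16.3 and 9.46 RPKM in wild type. The log2 change was -2.51 (SE 0.391, limma adjusted p = 0.000131), on 18 and 10 reads in the knockouts against 63 and 49 in wild type. Dio2 and Dio3 had no footprints in these 4 libraries.

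Of the small thioredoxin-like selenoproteins 2 of 3 tested were lower 3' of the UGA, near the 75% of all tested genes. Selenow, a cytosolic member, had 7.92 and 5.48 RPKM in knockout livers and 29.7 and 29.4 RPKM in wild type (log2 change -2.08, SE 0.363, adjusted p = 0.000281). Selenoh, a nuclear member, had 1.84 and 1.32 RPKM in knockout livers and 8.45 and 5.31 RPKM in wild type (log2 change -1.81, SE 0.342, adjusted p = 0.000474). Both had the genotypes apart. Selenot, a member in the endoplasmic reticulum, had 5.51 and 3.53 RPKM in knockout livers and 8.79 and 7.25 RPKM in wild type. Its log2 change of -0.78 (95% interval -1.54 to -0.03) narrowly missed the threshold (adjusted p = 0.0527), although both knockout libraries were below both wild type libraries. Selenot passed without Secisbp2 knockout replicate 1 (-1.07, adjusted p = 0.0210).

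Selenof, which works with the glucosyltransferase that checks glycoprotein folding in the endoplasmic reticulum, had 19.7 and 21.2 RPKM 3' of the UGA in knockout livers, against 264 and 163 RPKM in wild type. The fall was -3.31 on the log2 scale (SE 0.402, adjusted p = 2.8e-05), or -2.96 (adjusted p = 0.000253) with the wild type value that the file holds as a date left out. Msrb1, which repairs oxidised methionine, had 39.7 and 20.3 RPKM in knockout livers and 147 and 88.0 RPKM in wild type (log2 change -1.98, SE 0.631, adjusted p = 0.0133). The Msrb1 call was lost without Secisbp2 knockout replicate 2 (-1.51, adjusted p = 0.158) and without the first Secisbp2 wild type library (-1.61, adjusted p = 0.0965), while the other 8 falls 3' of the UGA held with any single library left out. Selenoi, an enzyme of phosphatidylethanolamine synthesis, had 105 and 117 RPKM in knockout livers and 191 and 164 RPKM in wild type with a change of -0.67 that did not pass (adjusted p = 0.419). Its knockout libraries were nonetheless below both wild type libraries, on 35 and 41 reads in knockout livers against 33 and 38 in wild type.

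**Figure D1:**
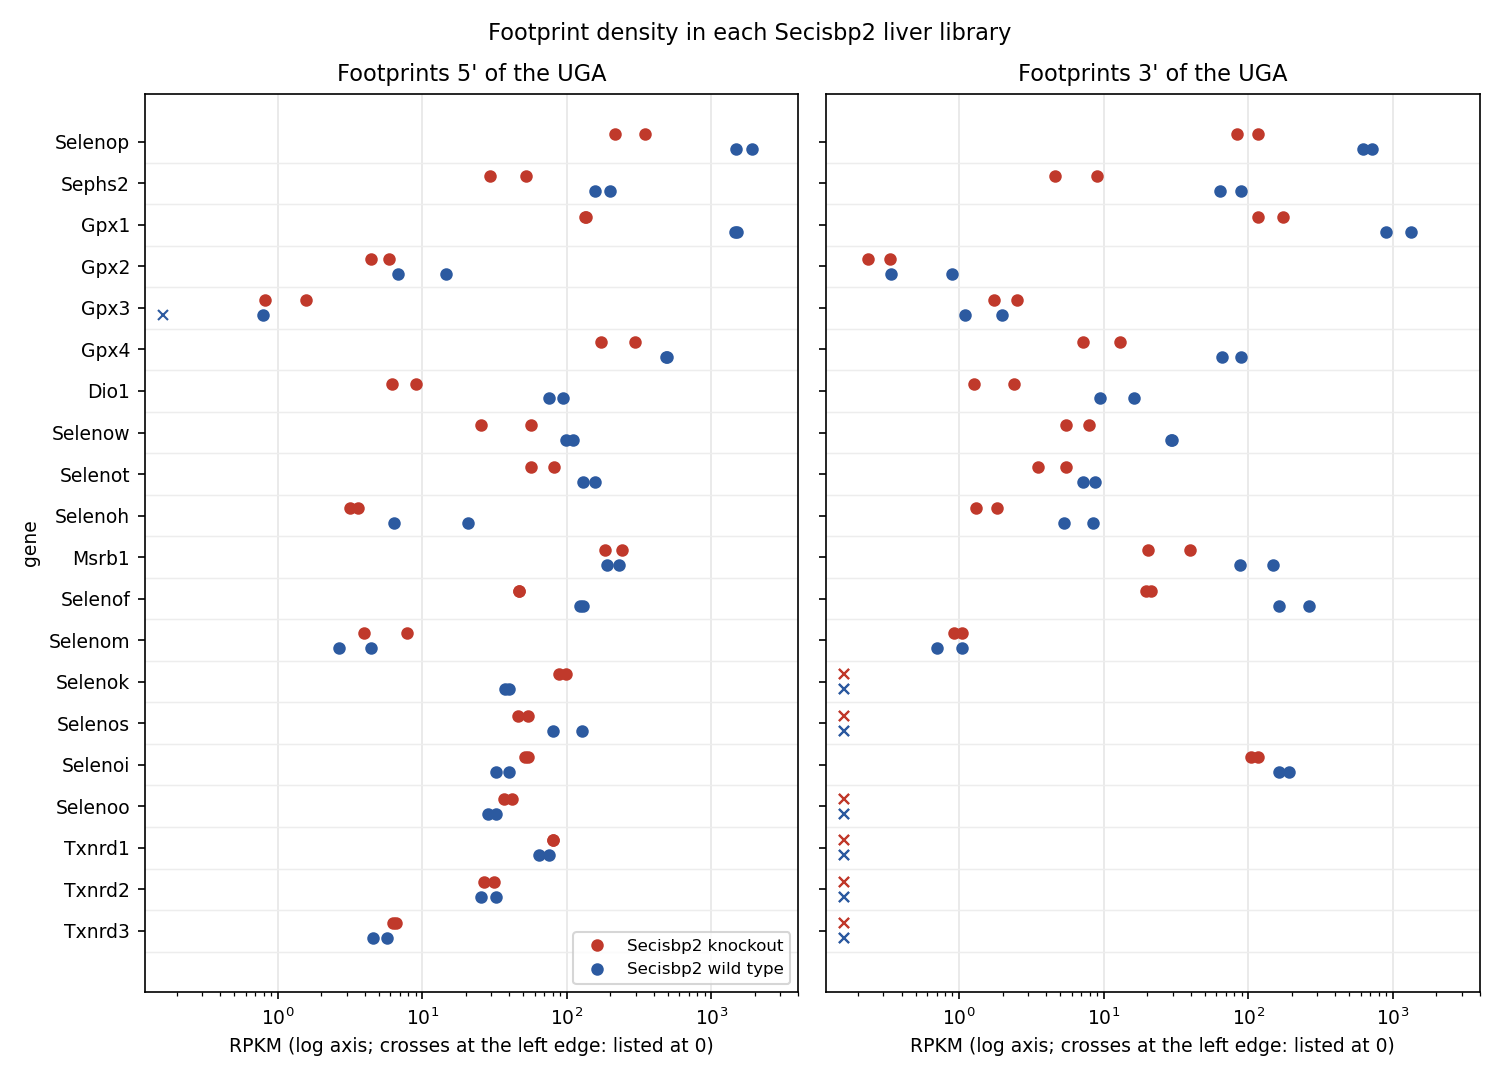
Footprint density (RPKM, log axis) of 20 selenoproteins 5' (left) and 3' (right) of the UGA, with a point for each of the 2 knockout libraries (red, upper) and the 2 wild type libraries (blue, lower) and a cross for values listed at 0. On the right the red points of Selenop, Sephs2, Gpx1, Gpx4 and Selenof lie far to the left of the blue ones; on the left Msrb1 and the thioredoxin reductases Txnrd1 to Txnrd3 have red and blue points close together.

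These falls rest on the authors' scaling, since the tables hold no other gene to check it on. The alternative that follows was set on each side of the UGA by itself. A library has a single depth, so this alternative cannot check that scaling. If libraries are instead brought to a common median over the tested genes, which sets the median change near 0 by construction, the 3' changes shift up by 2.22. On that scale Sephs2 was lower (-1.23, adjusted p = 0.00759), while Gpx3 (2.61, adjusted p = 0.00297) and Selenot (1.44, adjusted p = 0.00269) were higher and the other 9 did not pass. The same scaling shifts the 5' changes by 0.68 and turns the split of 5' calls into 5 lower (Dio1, Gpx1, Selenof, Selenop and Sephs2) and 8 higher (Gpx3, Msrb1, Selenoi, Selenok, Selenoo and Txnrd1 to Txnrd3).

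The 3'/5' ratio does not depend on library scaling. It passed as lower in the knockouts for Gpx4, Selenof and Sephs2, and none of these 3 calls held in every fit with a library left out. Of 12 genes tested, 3 (25%) had a lower ratio in knockout livers and none (0%) a higher one, with 5 at an unadjusted limma p under 0.05. The median log2 change of the ratio was -0.65, and 9 of the 12 changes were negative. Ratios are given as the 3' density in percent of the 5' density of the same library. With each library left out in turn the count of lower ratios was 0 to 2. It was 0 without either Secisbp2 knockout library, the first Secisbp2 wild type library or the first Trsp wild type library, and 2 without Trsp wild type replicate 2. On the 3' side of the UGA 8 to 10 genes were lower in the same fits. Several ratios exceed 100%, so they are not the percentage of ribosomes that pass the UGA.

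Gpx4 had the clearest fall in the ratio. In knockout livers the 3' density of Gpx4 was 4.37% (95% interval 3.49% to 5.42%) and 4.13% (3.06% to 5.47%) of the 5' density. In wild type it was 18.4% (16.1% to 20.8%) and 13.4% (11.9% to 15.2%). Means were 4.25% ± 0.173 and 15.9% ± 3.47 (SD, n = 2 each), and the counting intervals of the 2 genotypes did not meet. The log2 change of the ratio was -1.82 (SE 0.378, limma adjusted p = 0.0241). With each library left out in turn the change ranged from -2.04 to -1.60. The call was lost without either Secisbp2 knockout library, with a change of -1.84 (adjusted p = 0.137) when replicate 1 was missing and -1.80 (adjusted p = 0.135) when replicate 2 was. It was also lost without the first wild type library of either colony, at -1.60 for Secisbp2 (adjusted p = 0.122) and -1.82 for Trsp (adjusted p = 0.0600).

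Selenof and Sephs2 also had lower ratios. For Selenof the ratio was 41.9% and 45.5% in knockout livers, against 215% and 125% in wild type (log2 change -1.89, SE 0.558, adjusted p = 0.0476). For Sephs2 the ratio was 17.0% and 15.5% in knockout livers, against 56.4% and 31.9% in wild type (log2 change -1.29, SE 0.369, adjusted p = 0.0476). In both genes the knockout libraries were close to each other and the wild type libraries were not. Each call sat at the threshold and was lost without 8 of the 9 libraries, with adjusted p up to 0.223 for both; that of Selenof held without Trsp wild type replicate 2 and that of Sephs2 without Secisbp2 wild type replicate 2. Without Secisbp2 wild type replicate 1, the higher of the 2, the changes were -1.50 for Selenof and -0.88 for Sephs2. With the wild type value held as a date left out, the change was -1.50 for Selenof (adjusted p = 0.173) and the adjusted p of Sephs2 was 0.0614.

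In Msrb1 and Selenoi the ratio was lower in both knockout libraries than in both wild type libraries but did not pass. For Msrb1 it was 16.4% and 11% in knockout livers against 77.9% and 38.1% in wild type (log2 change -2.0, SE 0.842, adjusted p = 0.119). This is as large as the change of Gpx4, on 39 and 21 reads 3' of the UGA in knockout livers and 75 and 60 in wild type. With the Secisbp2 groups alone in the fit Msrb1 passed (adjusted p = 0.00119). For Selenoi the ratio was 195% and 227% in knockout livers against 483% and 509% in wild type (log2 change -1.23, SE 1.09, adjusted p = 0.513), and it too passed with the Secisbp2 groups alone (adjusted p = 0.0198). In the Trsp wild type libraries, which the shared spread includes, the Selenoi ratio averaged 111% ± 104 (SD, n = 3).

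For Selenop, Gpx1 and Selenot no lower ratio was found in knockout livers. The Selenop ratio was 33.7% (95% interval 31.3% to 36.4%) and 39.1% (35.7% to 43.0%) in knockout livers, against 41.9% (39.9% to 44.0%) and 37.2% (35.8% to 38.6%) in wild type. These rest on at least 636 reads on either side of the UGA in each library, and the genotypes overlapped. The log2 change was -0.11 with a 95% interval of -0.72 to 0.49 (limma adjusted p = 0.726), so that a fall as large as that of Gpx4 lies outside the interval. Selenop differs from the other genes here in having several UGA codons. The sources used here do not say which of them divided its windows.

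The Gpx1 ratio was 129% and 88.0% in knockout livers, against 88.7% and 62.1% in wild type, so that the genotypes overlapped. The log2 change was 0.52, with a 95% interval of -1.70 to 2.74 (limma adjusted p = 0.717). The interval includes the spread of Trsp wild type replicate 2, where the Gpx1 ratio was 17.3% against 104% and 135% in the other Trsp wild type libraries. Without that library the SE of the Gpx1 change fell to 0.392, against 0.937 with it (adjusted p = 0.341). The Selenot ratio was low in both genotypes, at 6.74% and 6.21% in knockout livers and 6.75% and 4.6% in wild type (log2 change 0.28, 95% interval -0.90 to 1.46, adjusted p = 0.717).

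Dio1 was the gene with both knockout ratios above both wild type ratios, at 26.8% and 20.6% in knockout livers against 17.3% and 12.5% in wild type. The log2 change of 0.90 (SE 0.300) did not pass (limma adjusted p = 0.0597). The counting interval of the second knockout library, 9.26% to 41.6%, covered both wild type values. The 0.5 RPKM added before taking logs enlarges this change, and with 1 RPKM added it was 1.06 (limma adjusted p = 0.0364). Selenow and Selenoh could not be resolved at this depth. The Selenow ratio was 31.1% and 9.70% in knockout livers and 30.2% and 26.7% in wild type, on 3 and 7 reads 5' of the UGA against 6 and 9. The Selenoh ratio was 58.6% and 36.7% in knockout livers and 41.0% and 83.8% in wild type, with a 95% interval of its log2 change from -3.50 to 3.17.

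**Figure D2:**
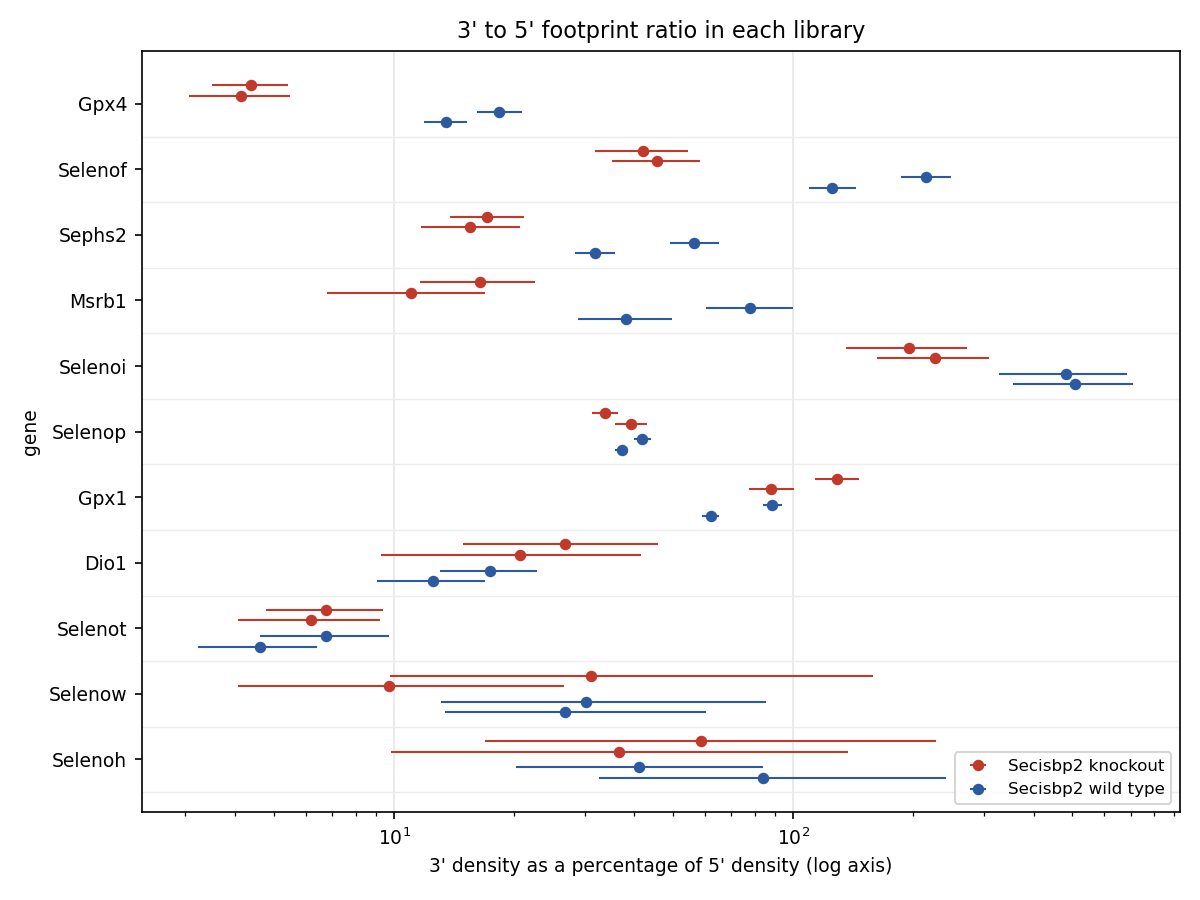
Ratio of the 3' to the 5' footprint density (percent, log axis) of 11 selenoproteins in each knockout library (red, upper pair) and wild type library (blue, lower pair), with 95% counting intervals. For Gpx4, Selenof, Sephs2, Msrb1 and Selenoi the red points lie to the left of the blue ones with no overlap of the intervals. The ratio changes of Msrb1 and Selenoi did not pass the test. The points of Selenop lie together between 33.7% and 41.9%.

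Against the 25% of all tested genes that passed with a lower ratio, 1 of 3 glutathione peroxidases did (Gpx4). So did 1 of 2 genes of selenium transport and selenophosphate synthesis (Sephs2) and 1 of 3 of the endoplasmic reticulum (Selenof). Counts in lists this small do not set any list apart from the others. The ratio passed as lower in none of the 4 genes known for mRNAs that depend on selenium supply (Gpx1, Msrb1, Selenoh and Selenow). Among them Msrb1 was lower in both knockout libraries than in both wild type libraries but missed the threshold (log2 change -2.0, limma adjusted p = 0.119). The list median log2 change was -0.40 against -0.65 for all 12 genes. All 4 of these genes fell 3' of the UGA, where 75% of all tested genes did, with a median of -2.03 against -2.29 for all 12. On the 5' side, where 45% of all tested genes passed as lower, 2 of the 4 did (Gpx1 and, on few reads, Selenow), with a median of -1.54 against -0.96 for the 20 genes tested. Of the housekeeping genes Gpx4, Txnrd1, Txnrd2 and Selenoi, 1 passed as lower 5' of the UGA (Gpx4), with a median of 0.11.

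On the 5' side of the UGA, 9 of 20 genes (45%) were lower in knockout livers and none (0%) were higher, with 11 at an unadjusted limma p under 0.05. The median log2 change was -0.96, and without overlap the knockout values were the lower ones for 11 of the 23 genes and the higher ones for 7. Without Trsp wild type replicate 2 there were 9 lower and 2 higher genes, with Selenoi and Selenok as the higher ones. Large falls were found in genes whose ratio did not pass. Gpx1 had 135 and 133 RPKM 5' of the UGA in knockout livers, against 1508 and 1458 RPKM in wild type (log2 change -3.46, SE 0.632, adjusted p = 0.00281). Dio1 had 9.0 and 6.18 RPKM in knockout livers, against 94.0 and 75.7 RPKM in wild type (log2 change -3.41, SE 0.282, adjusted p = 6.2e-05). Selenop had 346 and 214 RPKM in knockout livers, against 1481 and 1920 RPKM in wild type (log2 change -2.63, SE 0.274, adjusted p = 0.000163). In all 3 genes the knockout libraries were far below both wild type libraries.

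The genes with a lower ratio fell less 5' of the UGA than 3' of it. Gpx4 had 295 and 173 RPKM 5' of the UGA in knockout livers, against 488 and 494 RPKM in wild type (log2 change -1.12, SE 0.272, adjusted p = 0.0127). Sephs2 had 52.5 and 29.5 RPKM in knockout livers, against 157 and 200 RPKM in wild type (log2 change -2.16, SE 0.339, adjusted p = 0.0018). Selenof had 47.0 and 46.7 RPKM in knockout livers, against 123 and 130 RPKM in wild type (log2 change -1.42, SE 0.253, adjusted p = 0.00281). Msrb1 had the widest gap between the sides, with 242 and 185 RPKM 5' of the UGA in knockout livers against 189 and 231 RPKM in wild type. Its 5' change was 0.02 (95% interval -0.57 to 0.61, adjusted p = 0.989), where the 3' change was -1.98.

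Several genes had few reads on the 5' side. Selenoh had 3.14 and 3.59 RPKM in knockout livers and 20.6 and 6.34 RPKM in wild type, on 5 and 6 reads against 17 and 7, and did not pass (-1.64). Gpx2 had 5.85 and 4.45 RPKM in knockout livers and 14.7 and 6.74 RPKM in wild type and did not pass (-0.90). Gpx3 rested on 3 and 6 reads in knockout livers and 0 and 2 in wild type. Selenom, a thiol-disulfide oxidoreductase of the endoplasmic reticulum, had 7.80 and 3.93 RPKM in knockout livers and 4.43 and 2.64 RPKM in wild type, with the genotypes overlapping. Selenon, known for its role in muscle, had 1.02 and 0.929 RPKM in knockout livers and 0.550 and 0.821 RPKM in wild type and was under the minimum.

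Selenow, Selenot and Selenos made up the rest of the 5' falls. Selenow had 25.5 and 56.5 RPKM 5' of the UGA in knockout livers and 98.3 and 110 RPKM in wild type (log2 change -1.44, adjusted p = 0.0263). These values rest on 3 and 7 reads in knockout livers and 6 and 9 in wild type, and with libraries weighted by read number Selenow did not pass (-1.29, adjusted p = 0.058). Selenot had 81.7 and 56.9 RPKM in knockout livers and 130 and 158 RPKM in wild type (log2 change -1.06, adjusted p = 0.0328). Selenos, which takes part in the removal of misfolded proteins from the endoplasmic reticulum, had 54.0 and 45.8 RPKM in knockout livers and 80.0 and 127 RPKM in wild type (log2 change -1.01, adjusted p = 0.0132). All 3 calls depended on single libraries. The Selenow call was lost when Secisbp2 knockout replicate 1 or either Secisbp2 wild type library was left out (adjusted p up to 0.137). The Selenos call was lost when Secisbp2 knockout replicate 2 was left out (adjusted p = 0.0695). The Selenot call was lost when Secisbp2 knockout replicate 2, either Secisbp2 wild type library or Trsp wild type replicate 1 was left out (adjusted p up to 0.205). With no Trsp library in the fit Gpx4, Selenos and Selenow missed the threshold (adjusted p from 0.0570 to 0.0590). The 5' changes of Gpx4 and Selenot also depended on the control, and against the Trsp wild type libraries they were -0.45 (adjusted p = 0.183) and -0.14 (adjusted p = 0.824).

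**Figure D3:**
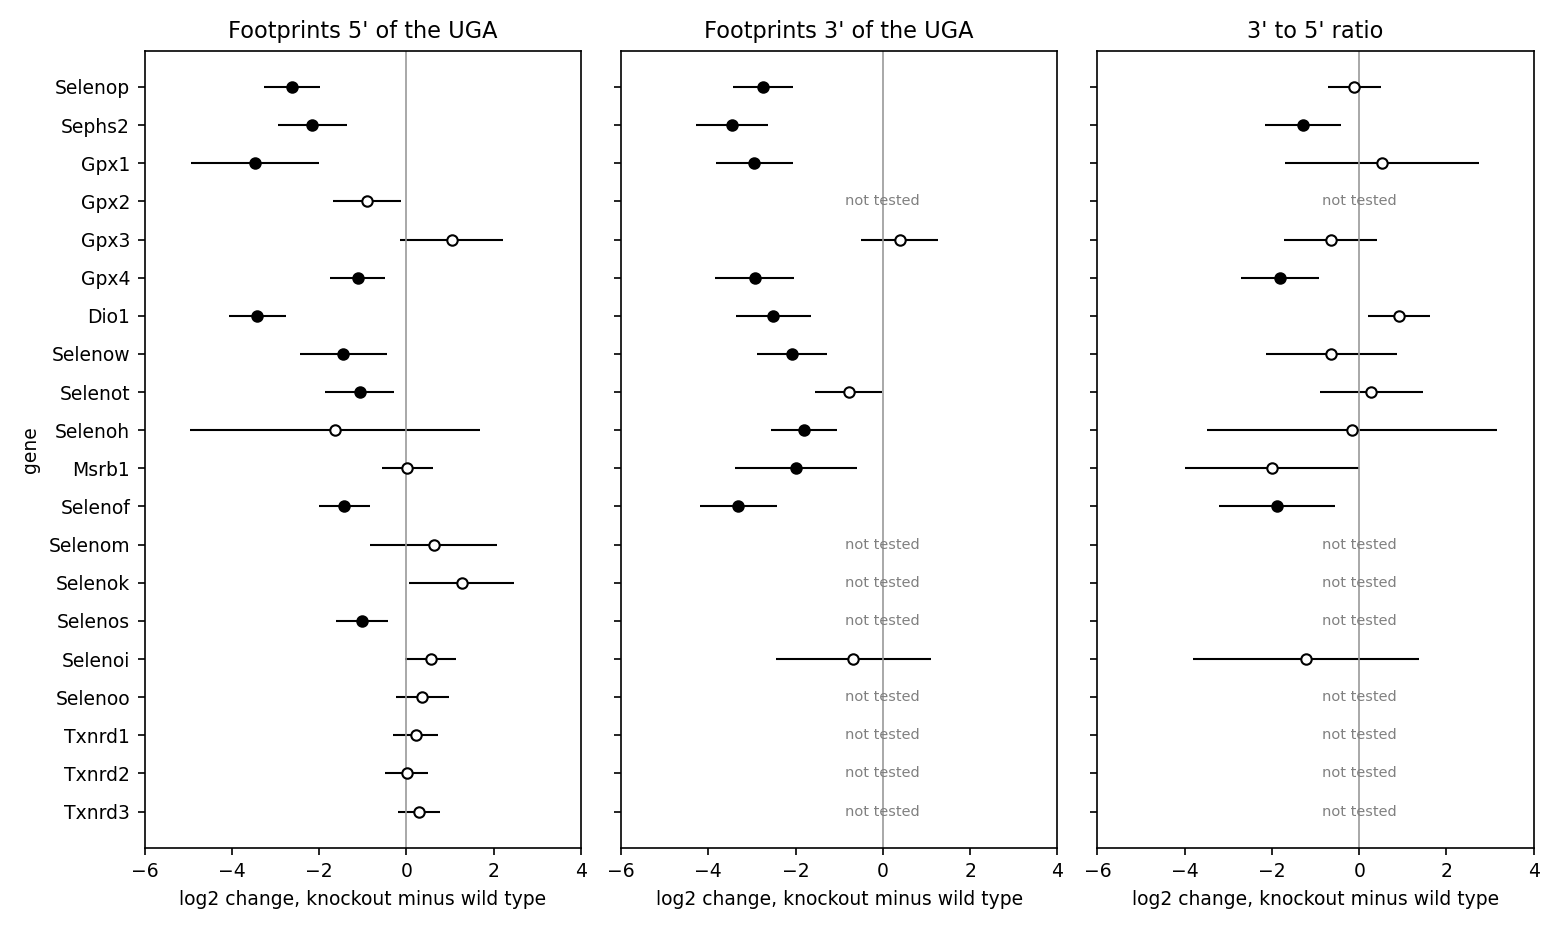
Log2 change, knockout minus wild type, of the 5' density (left), the 3' density (middle) and their ratio (right) for 20 selenoproteins, with 95% intervals from limma; filled points passed at an adjusted p under 0.05 and open points did not. Gpx4, Selenof and Sephs2 are filled in all 3 panels, whereas Selenop, Gpx1 and Dio1 are filled in the first and second panels, with open points near or above 0 for the ratio.

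The thioredoxin reductases and other selenoproteins with the UGA close to the stop codon could be followed on the 5' side. Of 7 such genes, 1 fell (Selenos), none rose and 6 missed the threshold, where 45% of all tested genes fell. The list median was 0.29, against -0.96 for the 20 genes tested. Txnrd1, the cytosolic thioredoxin reductase, had 80.8 and 80.1 RPKM 5' of the UGA in knockout livers and 74.7 and 64.1 RPKM in wild type (log2 change 0.22, 95% interval -0.30 to 0.73, adjusted p = 0.397). Txnrd2, its mitochondrial counterpart, had 31.1 and 26.5 RPKM in knockout livers and 32.4 and 25.4 RPKM in wild type (log2 change 0.00, 95% interval -0.50 to 0.50, adjusted p = 0.989). Neither change passed, nor did that of Txnrd3 (0.29), best known from testis, or Selenoo (0.36), a mitochondrial enzyme. The genotypes overlapped for Txnrd2, while for Txnrd1, Txnrd3 and Selenoo both knockout libraries were above both wild type libraries. Selenok, which sits in the membrane of the endoplasmic reticulum and takes part in protein palmitoylation, had 88.8 and 99.1 RPKM in knockout livers, against 37.6 and 39.8 RPKM in wild type. Both knockout libraries were well above both wild type libraries, but the change of 1.27 (SE 0.520) did not pass (adjusted p = 0.0772). It passed with the Secisbp2 groups alone in the fit (adjusted p = 0.00666) and when Trsp wild type replicate 2 or 3 was left out, and was -0.27 against the Trsp wild type libraries (adjusted p = 0.824). On the 3' side Selenoi was the member of this list with footprints; the 3 thioredoxin reductases, Selenok, Selenos and Selenoo were listed at 0 in every library, so no ratio could be formed.

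The make-up of the selenoprotein footprints differed between the genotypes. Gpx1 and Selenop together took 11.1% and 8.86% of the selenoprotein reads 5' of the UGA in knockout livers, against 39.5% and 43.2% in wild type. Txnrd1 alone took 20.4% and 23% in knockout livers, against 11.5% and 9.32% in wild type. The knockout shares of Txnrd1 were above both wild type shares with no meeting of their 95% intervals, while its RPKM did not pass the test; a share also depends on the reads of the other genes. Selenoo took 12.5% and 16% in knockout livers and 6.69% and 5.53% in wild type, and Selenoi 10.5% and 11.4% in knockout livers and 4.7% and 3.63% in wild type. On the 3' side Gpx1 and Selenop together held 86.5% and 87.1% of the reads in knockout livers, against 84.7% and 87.7% in wild type, with the 2 genotypes overlapping.

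**Figure D4:**
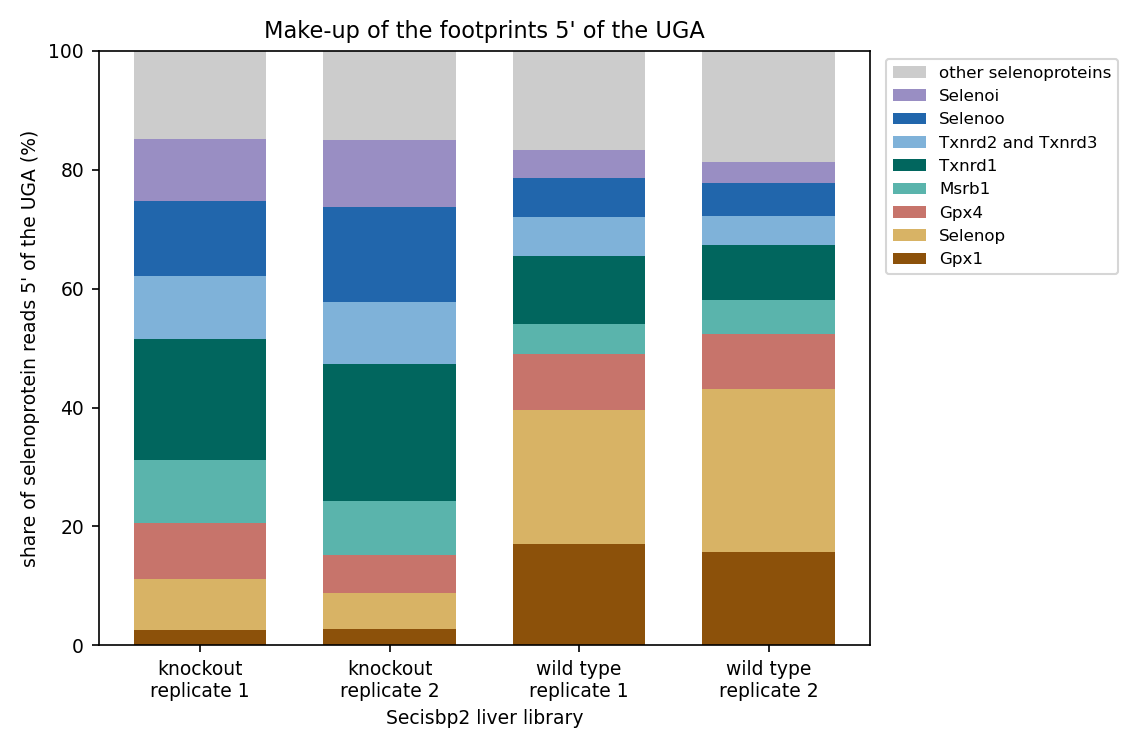
Share (%) of the selenoprotein reads 5' of the UGA taken by single genes and by Txnrd2 with Txnrd3, in each of the 2 knockout and 2 wild type libraries. Gpx1 and Selenop, at the foot of each bar, fill 11.1% and 8.86% of the knockout bars and 39.5% and 43.2% of the wild type bars.

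For few genes did the change of the 5' footprints pass as different from that of the mRNA. In the test of footprints over mRNA, 1 of 20 genes (5%) was lower and none (0%) were higher, with 5 at an unadjusted limma p under 0.05 and a median log2 difference of -0.10. The gene that passed was Selenot, with a difference of -1.38 (SE 0.362, adjusted p = 0.0464). Its mRNA was 32.3 and 30.3 RPKM in knockout livers and 26.8 and 23.6 RPKM in wild type, above wild type where the footprints were below. This call was lost without 13 of the 18 libraries (adjusted p up to 0.198) and the difference was 0.25 with the Trsp wild type libraries as control. Gpx1 (-0.82, adjusted p = 0.573), Selenop (-0.21, adjusted p = 0.755) and Gpx4 (0.32, adjusted p = 0.651) did not pass. Dio1 (-0.87), Selenof (-0.69), Selenok (1.5) and Gpx3 (1.34) did not pass either, each at an unadjusted p under 0.05. Without Trsp wild type replicate 2, Selenok (adjusted p = 0.00365) and Selenof (adjusted p = 0.0163) passed as well, and without Secisbp2 wild type replicate 2 Gpx3 did (2.03, adjusted p = 0.0310).

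**Figure D5:**
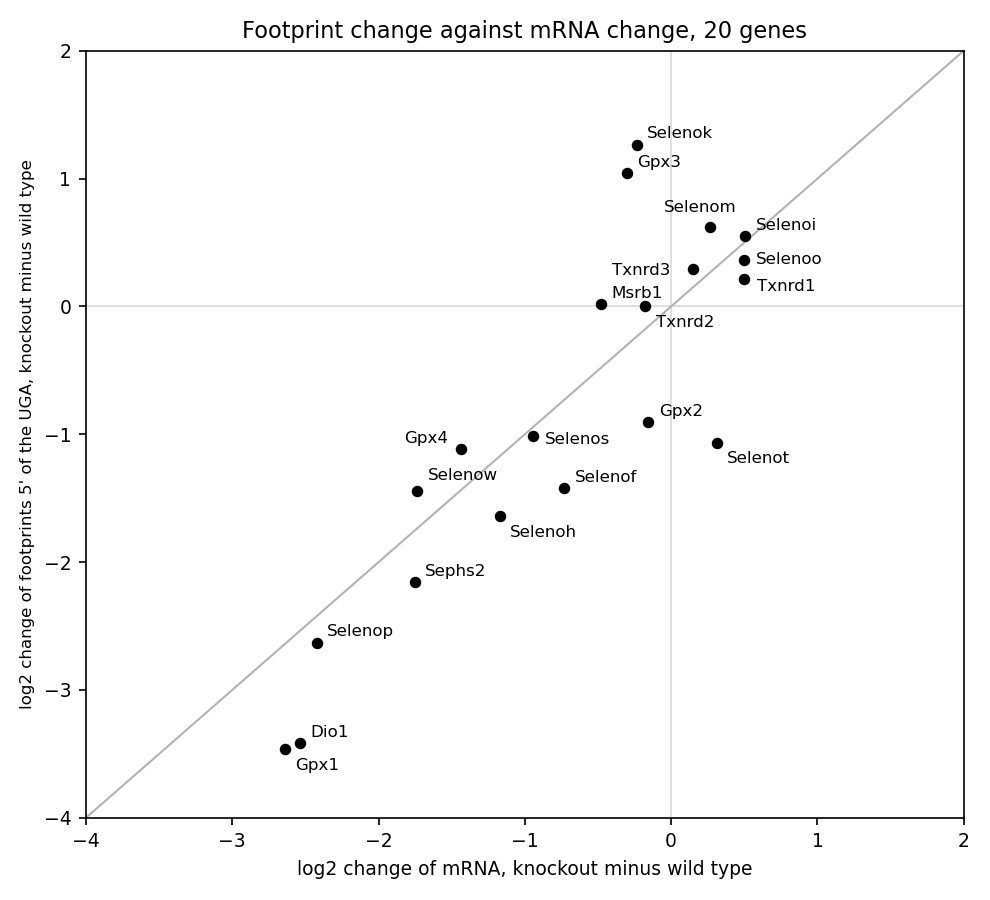
Log2 change, knockout minus wild type, of the 5' footprints (vertical) against that of mRNA (horizontal) for 20 selenoproteins; the grey diagonal marks equal change. Gpx1, Dio1 and Selenop lie at the lower left near the diagonal or below it, Selenot lies below it at an mRNA change of 0.31, and Selenok and Gpx3 lie above it.

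The Trsp knockout targets the selenocysteine transfer RNA, which the insertion also needs, in the same cells. It was set against the Secisbp2 knockout. The difference of the knockout effects, each against its own wild type, was tested in the same fit. The Trsp knockout and wild type libraries share a set of codes, whereas those of Secisbp2 do not. A difference between the Secisbp2 code sets therefore enters the difference of the effects and cannot be told apart from it. For the ratio, 4 of 12 genes (33.3%) had a higher change in the Secisbp2 than in the Trsp comparison and none (0%) a lower one. At an unadjusted limma p under 0.05 there were 5. The Secisbp2 change was less negative for Sephs2 and Selenop, and positive for Dio1 and Selenot. All 4 calls held with any single library left out.

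Of the genes past the threshold, Sephs2 had the largest difference of the ratio and Selenop the smallest. The Sephs2 ratio was 17.0% and 15.5% in Secisbp2 knockout livers against 56.4% and 31.9% in their wild type, and 1.41% and 2.23% in Trsp knockout livers against 57.6%, 54.0% and 60.7% in theirs. Its log2 change was -1.29 in the Secisbp2 and -4.81 in the Trsp comparison, a difference of 3.51 (SE 0.50, adjusted p = 0.0012). The Selenop ratio, which did not pass in the Secisbp2 comparison, was 12.1% and 10.1% in Trsp knockout livers against 60.3%, 60.5% and 57.1% in wild type. Its change was -0.11 in the Secisbp2 and -2.42 in the Trsp comparison, a difference of 2.30 (SE 0.345, adjusted p = 0.0012). For both genes the Trsp knockout ratios were below the Secisbp2 knockout ratios.

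Dio1 and Selenot were the other genes past the threshold. The Dio1 ratio averaged 23.7% ± 4.35 in Secisbp2 knockout livers and 14.9% ± 3.42 in wild type (SD, n = 2 each), and 4.68% ± 0.510 (SD, n = 2) in Trsp knockout livers against 22.4% ± 3.61 (SD, n = 3) in wild type. The difference of the effects was 2.89 (SE 0.407, adjusted p = 0.0012). For Selenot the difference was 2.97 (SE 0.672, adjusted p = 0.00958). The wild type ratios of the colonies did not overlap for Dio1, Selenop and Selenot, and overlapped for Sephs2. The Selenot ratio was 6.75% and 4.6% in Secisbp2 wild type livers, against 27.2%, 57.2% and 28.9% in Trsp wild type livers. With the Trsp wild type as control the Selenot ratio in the Secisbp2 knockout had a log2 change of -2.33 (adjusted p = 0.00571). Gpx4, whose ratio fell in the Secisbp2 knockout, had a difference of 1.37 (95% interval 0.15 to 2.58), which did not pass (adjusted p = 0.0777). Its changes were -1.82 in the Secisbp2 and -3.19 in the Trsp comparison. For Selenof the changes were -1.89 and -1.52, a difference of -0.37 (95% interval -2.16 to 1.42, adjusted p = 0.639).

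The densities differed as well. Of 12 genes, 3 (25%) had a higher change 3' of the UGA in the Secisbp2 than in the Trsp comparison, namely Gpx1 (-2.94 against -5.43), Sephs2 (-3.45 against -5.61) and Selenot (-0.78 against -3.62), and none (0%) a lower one, with 5 at an unadjusted limma p under 0.05. On the 5' side 6 of 20 genes (30%) had a higher and 5 (25%) a lower change, 55% in either direction, with 12 at an unadjusted p under 0.05. All 3 thioredoxin reductases were among the higher ones, of which the wild type values of the colonies overlapped for Txnrd1 and did not for Txnrd2 and Txnrd3. Txnrd1 changed by 0.22 5' of the UGA in the Secisbp2 comparison and by -1.89 in the Trsp comparison (difference 2.10, SE 0.298, adjusted p = 0.00137), and Selenok by 1.27 and -3.08 (difference 4.35, SE 0.704, adjusted p = 0.00164). The lower ones included Dio1 (-3.41 in the Secisbp2 against -1.0 in the Trsp comparison), Selenop (-2.63 against -0.95) and Gpx4 (-1.12 against 0.43).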

How the data were processed

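Ribosome footprints were sequenced from whole mouse livers. The authors deposited RPKM values (reads scaled to window length and library size, per the file headers), with separate tables for the 5' side of the UGA, the 3' side and mRNA. The submitters' processing notes name Bowtie 0.12.8 and the mouse build mm9. The sources used here do not give windows, annotation or the treatment of shared reads. Windows set the length that each density is divided by, so a ratio can be compared between libraries for the same gene but not between genes.

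Each footprint RPKM is a whole multiple of the worth of a single read. All 312 values above 0 came within 0.02 of a whole number, which gave the read numbers and the libraries' relative depth. Absolute depth is unknown, and intervals built on read numbers (95% Clopper-Pearson for ratios, Wilson for shares) cover counting error only. Selenof 3' of the UGA in wild type replicate 1 held a date; its spreadsheet serial number, 263.871 RPKM, corresponds to 521 reads, against 519.026 and 522.974 for the neighbouring days, and was used as the value. Of 23 gene names, 11 matched current symbols and 12 a synonym in a RefSeq gene table of another build, used for names alone.

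Densities were tested as log2(RPKM + 0.5), the ratio as the difference of the 3' and 5' log2 values of the same library, and footprints over mRNA as the interaction of assay and genotype. For densities this scale understates the change of low genes. For a ratio it can also enlarge the change, as for Dio1, at 0.90 here and 1.06 with 1 RPKM added. Genes needed a mean of at least 1 RPKM in each table used. The fit was limma 3.58.1 in R 4.3.3 with all 9 footprint libraries, 4 of them from the Secisbp2 colony, and 18 libraries for footprints over mRNA. Tests were two-sided with Benjamini-Hochberg adjustment over the genes tested and a threshold of 0.05. An exact permutation test of 2 against 2 libraries cannot go below p = 0.333. The limma step and the read recovery were tested on simulated data. For limma every simulated gene had the same spread apart from counting error, so the simulation gives no error rates for these data. Nothing in the labels says whether replicates are separate mice, so p-values measure the spread between these libraries. Python 3.11.15 with numpy 2.4.6, pandas 2.3.3, scipy 1.17.1 and matplotlib 3.10.9 did the rest.

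Alternatives covered the pseudocount, the filter, the groups in the fit, a replicate block, the control, precision weights, the library scaling, the date cell and each library left out. Values per library are given for each gene past the threshold and, whatever their p, for Gpx1, Gpx4, Selenop, Selenow, Dio1, Sephs2, Txnrd1, Txnrd2, Selenof, Selenos, Selenok and Msrb1. The members and lists were chosen with earlier results of these data known.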

Additional observations from a re-analysis of the deposited data

Results flagged for a closer look

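For 18 measurements the effect of the Secisbp2 knockout, against its own wild type, differed from that of the Trsp knockout by limma's test of the difference itself, at an adjusted p under 0.05. Differences are log2 values, Secisbp2 effect minus Trsp effect.

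For footprints 5' of the UGA, the Secisbp2 effect lay below the Trsp effect for Dio1 by a difference of -2.41 (SE 0.382, adjusted p = 0.00164), Selenop by -1.68 (SE 0.371, adjusted p = 0.00731), Gpx4 by -1.55 (SE 0.368, adjusted p = 0.00893) and Sephs2 by -1.36 (SE 0.459, adjusted p = 0.0351). Gpx2 differed by -7.22, but it was listed at 0 in the Trsp wild type libraries, so that this value depends on the 0.5 RPKM added and is no measure of size. The Secisbp2 effect lay above the Trsp effect for Selenok (4.35, adjusted p = 0.00164), Txnrd1 (2.10, adjusted p = 0.00137), Txnrd2 (1.64, adjusted p = 0.00231), Txnrd3 (1.16, adjusted p = 0.00893), Selenoo (1.10, adjusted p = 0.0322) and Selenoi (1.05, adjusted p = 0.0322). The calls of Selenoo, Selenoi and Sephs2 were each lost without 5 of the 9 libraries, with adjusted p up to 0.0955 for Selenoo, 0.105 for Selenoi and 0.141 for Sephs2.

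For footprints 3' of the UGA, the Secisbp2 effect lay above the Trsp effect for Selenot (2.84, adjusted p = 0.00116), Gpx1 (2.49, adjusted p = 0.00508) and Sephs2 (2.16, adjusted p = 0.00604). For the 3'/5' ratio it did so for Sephs2 (3.51, adjusted p = 0.0012), Selenot (2.97, adjusted p = 0.00958), Dio1 (2.89, adjusted p = 0.0012) and Selenop (2.30, adjusted p = 0.0012). These 7 calls held with any single library left out. For 12 of the 18 measurements the wild type livers of the Secisbp2 and Trsp colonies did not overlap. These were Gpx2, Gpx4, Selenoi, Selenok, Sephs2, Txnrd2 and Txnrd3 5' of the UGA, Selenot and Sephs2 3' of it, and the ratios of Dio1, Selenop and Selenot. The part of the colony in these differences was not tested. A difference between the code sets of the Secisbp2 libraries also enters them and cannot be told apart.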

How the results depend on the processing

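Of 1344 gene values recomputed under the alternatives, 1185 kept their direction and their side of the threshold, 36 newly passed, 91 lost their call and 32 changed sign. Scaling libraries to the same median log2 ratio gave 5 lower and 8 higher genes 5' of the UGA and 1 lower and 2 higher 3' of it, and turned the 3' changes of Msrb1 (0.24), Selenoh (0.42), Selenoi (1.55), Selenot (1.44) and Selenow (0.14) positive; it also left 0 calls for footprints over mRNA and 2 lower differences 3' of the UGA between the colonies. Higher 5' genes numbered 1 with the Secisbp2 groups alone, 3 with the Trsp wild type as control and 1 with precision weights. The ratio was lower for 1 gene with a pseudocount of 0.1, 1 without a filter, 5 with the Secisbp2 groups alone and 1 without the date cell, and higher for 1 (Dio1) with a pseudocount of 1 (1.06, adjusted p = 0.0364) or a filter at 5 RPKM (0.90, adjusted p = 0.0411). Footprints over mRNA gave 0 calls with a pseudocount of 0.1, the replicate block, pooled wild types or the Trsp wild type, and 1 higher (Selenok) with the Secisbp2 groups alone. Without a filter, 1 difference 3' of the UGA was lower. The cause of these moves was not tested. The median scaling was set on each side of the UGA by itself, although a library has a single depth.

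The replicate number as a block gave 2 higher genes 5' of the UGA (Selenok, adjusted p = 0.00928, and Gpx3, adjusted p = 0.0329), added Selenoh (adjusted p = 0.00536) and Gpx2 (adjusted p = 0.0419) to the lower ones, and left 3 higher differences 5' of the UGA, with Selenoi, Selenoo and Txnrd3 no longer passing (adjusted p = 0.071 each). For the ratio Msrb1 then passed (adjusted p = 0.0227) and Sephs2 did not (adjusted p = 0.0888). Same-numbered knockout and wild type libraries share a number alone; their deviations correlated at 0.141 over 20 genes 5' and 0.165 over 12 genes 3' of the UGA.

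Pooling both wild types or using the Trsp wild type turned the 5' changes of Gpx2 (1.73 and 3.49) and Msrb1 (-0.34 and -0.57), the 3' change (0.68 and 1.58) and the ratio (0.47 and 1.60) of Selenoi, the ratio of Selenot (-1.28 and -2.33) and Selenop footprints over mRNA (0.027 and 0.18). The Trsp wild type alone also turned the 5' changes of Selenoh (0.076), Selenoi (-0.027), Selenok (-0.27) and Selenom (-0.29), the 3' change of Gpx3 (-0.18) and Selenot footprints over mRNA (0.25).

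Leaving out each library gave 7 to 9 lower and 0 to 2 higher genes 5' of the UGA, 8 to 10 lower 3' of it, 0 to 2 lower for the ratio, and 0 to 2 lower and 0 to 1 higher for footprints over mRNA. Differences between the colonies numbered 4 to 6 in each direction 5', 0 to 1 lower and 3 to 5 higher 3', and 0 to 1 lower and 4 to 5 higher for the ratio. Msrb1 5' ranged from -0.17 to 0.21, Txnrd2 5' from -0.17 to 0.18, the Selenoh ratio from -0.67 to 0.34, the Selenow ratio from -1.45 to 0.18, Gpx4 over mRNA from -0.062 to 0.70 and Selenop over mRNA from -0.55 to 0.14. Depth limits Selenow, Selenoh, Gpx2 and Gpx3, which rest on few reads.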
